A study of Homo sapiens with 9 samples.

Results

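The type I interferon-stimulated genes are transcripts that most cells make in larger amounts after interferon alpha or beta binds its receptor. Here 48 of them, taken by symbol from a list of well known members, were followed among the 58387 genes of the table. The list was chosen with earlier results of these data known, so its counts beside those of all genes are a description. The cells were MM1S, an established human multiple myeloma line, and RNA-seq was done on total RNA of 9 libraries. In the control group (shEV, 3 libraries) the cells stably carried an empty lentiviral vector, and in the knockdown group (PHF19_KD, 3 libraries) they carried an shRNA against PHF19. The third group (KD_Rescued, 2 libraries) consisted of knockdown cells that also received PHF19 in a form the shRNA does not recognise. A further library has a title that names it a knockdown and an shRNA label that names the resistant PHF19. It is called the disputed library below, is shown apart and entered no test. The labels name no interferon treatment, and all cells were grown in ordinary medium. The labels name neither the shRNA sequence nor the number of shRNAs or clones, nor whether the replicates came from separate cultures. The p-values therefore rest on the variation among these libraries alone, part or all of which could be technical.

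Interferon alpha and beta act through a receptor of IFNAR1 and IFNAR2 chains, whose kinases JAK1 and TYK2 phosphorylate STAT2. STAT2 and IRF9 are subunits of the ISGF3 complex, which binds interferon-stimulated response elements in the promoters of the genes described here. Their products block viral entry, translation and replication, degrade RNA, modify proteins with ISG15, or feed back on the pathway. PHF19 belongs to Polycomb repressive complex 2 as an accessory protein. The complex methylates histone H3, and the series concerns its role in placing that mark in myeloma.

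Column totals were 16974700 to 22739700 estimated counts for shEV, 10609800 to 12024900 for PHF19_KD, 23644100 to 23751400 for KD_Rescued and 10164100 for the disputed library. Levels are given as normalised CPM, counts scaled by the column total and the TMM factor. PHF19 stood at 123, 124 and 103 CPM in shEV, at 25.9, 27.5 and 27.3 in PHF19_KD, at 219.7 and 217 in KD_Rescued and at 63.5 in the disputed library. It was thus lowest in every knockdown library and highest in both rescued ones, and the disputed library lay between PHF19_KD and shEV. Mitochondrial transcripts took 2.84% to 3.32% of counts in shEV, 9.02% to 10.0% in PHF19_KD, 4.99% to 5.18% in KD_Rescued and 5.56% in the disputed library. This share was highest in the group in which most of the genes below were highest, and its part in their levels was not tested. Per the library names, the KD_Rescued libraries came from another lane than the rest, and an effect of the lane cannot be told apart from one of the rescue.

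The line's own markers were present, with all 9 plasma cell and myeloma genes tested and SDC1, the plasma cell surface proteoglycan CD138, between 609 and 1063 CPM in the 8 fitted libraries. The summed level of the 9 was 10593 to 11692 CPM in shEV, 7006 to 7184 in PHF19_KD and 9790 to 9824 in KD_Rescued. In PHF19_KD against shEV 3 of the 9 rose and 4 fell, beside 34.9% and 34.2% of all genes tested. By at least 2-fold 1 rose and 2 fell, beside 16.3% and 10.1% of all genes. The part of the lower summed level in the results below was not tested. Of 6 monocyte and macrophage markers, 2 passed the filter (CD68 and ITGAM), and both rose in PHF19_KD. The summed level of the 6 was 20.3 to 23.2 CPM in shEV, 26.5 to 31.2 in PHF19_KD and 9.66 to 10.4 in KD_Rescued. FCGR3A was at 0 in every library, CD14 reached at most 0.177 CPM and LYZ at most 0.087. Plasmacytoid dendritic cells are a major source of interferon alpha, and their 3 markers summed to at most 0.202 CPM, with CLEC4C at 0 throughout. The 6 T and NK cell markers summed to between 0.953 and 2.38 CPM, with CD3D and NKG7 at 0. The 4 fibroblast markers summed to 0.361 to 0.766 CPM in shEV and 2.23 to 2.79 in PHF19_KD, nearly all of it COL1A1, with LUM at 0. The 4 epithelial markers summed to 0.284 to 0.894 CPM in shEV and 0.758 to 1.35 in PHF19_KD. In bulk RNA, a change in how many cells express a gene and a change in the RNA per cell cannot be told apart.

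Most interferon-stimulated genes stood higher in the knockdown than in the empty vector cells. Differences were tested with the edgeR quasi-likelihood test over 16600 genes, and a gene is said to have risen or fallen where its Benjamini-Hochberg adjusted p was below 0.05. Every adjusted p below is from that test, and fold changes are log2 values ± SE. Of the 48 genes, 47 passed the filter, and IFITM3 had 0 counts in all 9 libraries. In PHF19_KD against shEV 36 rose, against 34.9% of all genes tested, 4 fell, against 34.2%, and 7 were not called, while 69.1% of all genes were called in either direction. Rises of at least 2-fold were seen for 23, against 16.3% of all genes, and a fall of that size for 1, against 10.1%. All PHF19_KD libraries lay above all shEV libraries for 35 of them (36.6% of all genes) and below for 4 (35.4% of all genes). The median log2 fold change was 0.86, beside 0.03 over all genes tested. Of the 47, 8 (OASL, IFIT2, RSAD2, CMPK2, IFITM2, LGALS3BP, IFI27 and IFI44L) reached the filter's level of 0.535 CPM in fewer than 2 shEV libraries, so they could pass only through the other groups. Counts and medians over the 47, and over the role groups that hold these genes, are therefore given as a description.

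In KD_Rescued against PHF19_KD 29 of the 47 fell, against 29.5% of all genes tested, 7 rose, against 33.9%, and 11 were not called, with 63.4% of all genes called in either direction. Falls of at least 2-fold were seen for 13 (12.7% of all genes) and rises of that size for 2 (10.5% of all genes). Both KD_Rescued libraries lay below all PHF19_KD libraries for 33 (36.4% of all genes) and above for 7 (40.8% of all genes), and the median was -0.52, beside 0.03. Against shEV, 24 were still higher in KD_Rescued, against 20.7% of all genes tested, 6 were lower, against 19.1%, and 17 were not called, with 39.8% of all genes called in either direction. Of these 14 were at least 2-fold higher (5.46% of all genes), and 0 at least 2-fold lower (1.87% of all genes). Both KD_Rescued libraries lay above all shEV libraries for 27 (32.5% of all genes) and below for 8 (29.3% of all genes), with a median of 0.59, beside 0.02. The 3 comparisons share libraries, so their values are set side by side and no overlap between them was counted. With the disputed library placed in KD_Rescued, 11 rather than 29 fell from PHF19_KD. No longer called were OAS1, OAS3, the 4 IFIT genes, MX1, RSAD2, IFITM2, LGALS3BP, TRIM22, PARP14, DTX3L, SAMD9, SAMD9L, IFI44L, XAF1 and EPSTI1.

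**Figure D1:**
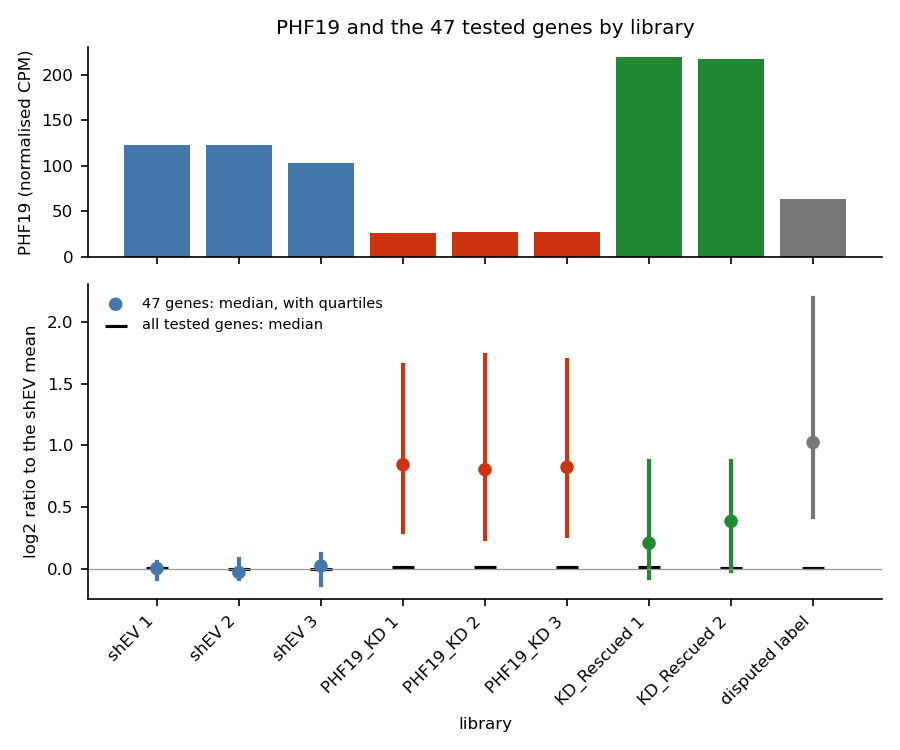
PHF19 in normalised CPM (upper bars) and, below, the median log2 ratio of the 47 tested interferon-stimulated genes to their shEV mean, after adding 0.5 CPM, with lines from the lower to the upper quartile and dashes for the median of all tested genes, by library. The medians lie between 0.80 and 0.84 in the 3 PHF19_KD libraries, at 0.21 and 0.38 in KD_Rescued and at 1.02 in the disputed library, while those of all genes stay near 0.

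By library, the median log2 ratio of the 47 genes to their shEV mean, after adding 0.5 CPM to each level, was 0.84, 0.80 and 0.82 in PHF19_KD, 0.21 and 0.38 in KD_Rescued and 1.02 in the disputed library. The plot of PHF19 beside these medians shows that the order of the libraries by PHF19 is not the reverse of their order by interferon-stimulated genes. The KD_Rescued libraries had the most PHF19, yet their medians lay above those of shEV, which ran from -0.03 to 0.02. The disputed library had more PHF19 than PHF19_KD and the highest median. In the disputed library 40 of the 47 lay above every shEV library, beside 41.3% of all genes tested. The heat map of all members shows rises in each role. Their sizes ran from 0.21 ± 0.08 for OAS3, 0.31 ± 0.06 for OAS2 and 0.35 ± 0.04 for STAT2 to 3.92 ± 0.54 for IFI44L, 3.95 ± 0.11 for IFI6 and 4.30 ± 0.49 for RSAD2. IFI44L and RSAD2 were near 0 in shEV and could pass the filter only through the other groups, so their sizes rest on few control counts.

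**Figure D2:**
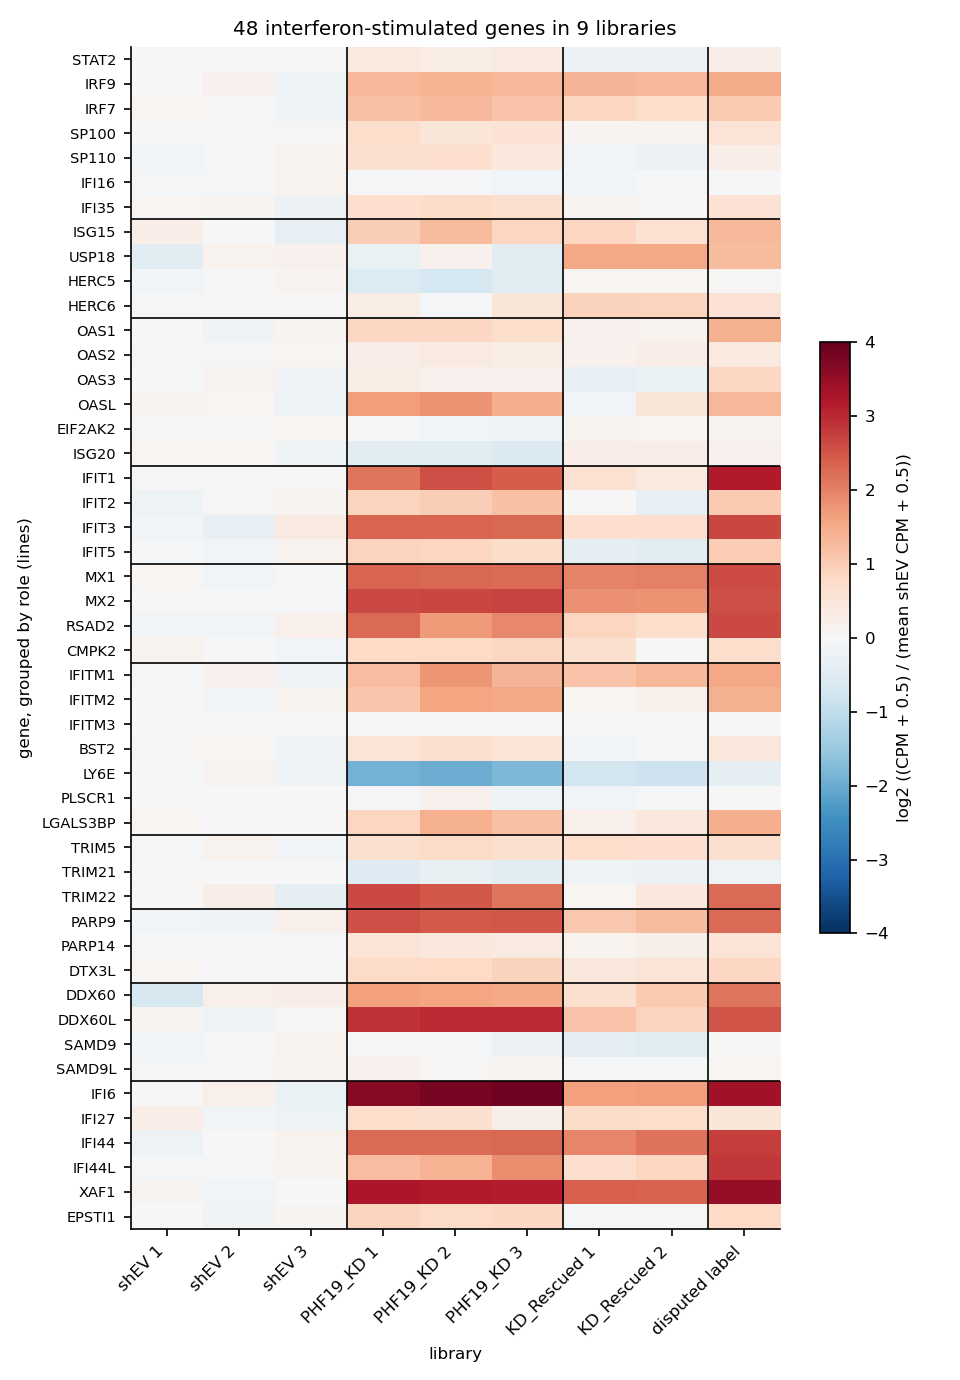
Log2 ratio of each of the 48 genes to its mean in shEV after adding 0.5 CPM (colour, from -4 in blue to 4 in red), by library (columns) and by gene grouped by role (horizontal lines). Red fills most of the 3 PHF19_KD columns and the disputed library and is paler in KD_Rescued, LY6E is blue in PHF19_KD, and the row of IFITM3, at 0 counts throughout, is white.

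Most promoters of the members held the letters of the response element. RefSeq promoter windows (GRCh38.p14, 250 bases before to 50 after an annotated start) were at hand for 39 of the 48 genes, 53 windows in all, and none was used for IFIT2, TRIM22, OASL, OAS2, USP18, IRF7, LY6E, IFITM2 and MX2. The core of the interferon-stimulated response element, TTTC and TTTC with 2 bases of any kind between them, searched on both strands, was found in 33 of the 53 windows (62.3%), that is in 28 of the 39 genes, and in 1255 of all 35116 windows (3.57%). The core TTCNNNGAA of the gamma-activated sequence, an element of interferon gamma responses, was found in 14 of the 53 (26.4%), beside 7.66% of all windows. The response element match was about as common in genes that rose as in the others. It was present in 21 of the 29 that rose in PHF19_KD and had a window, and in 7 of the other 10, among them the untested IFITM3. The gamma-activated core was found in 11 of those 29 genes and in 1 of the other 10, and neither split was tested. The 27 tested genes with a response element match had a median log2 fold change of 1.12 (21 rose, 3 fell). The 11 with a window and no such match had 0.60 (8 rose, 0 fell). Membership of the list was not independent of the element, by which many such genes are known.

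The windows below are those of the 6 genes with a match and the lowest adjusted p in PHF19_KD against shEV, and of HERC5, chosen after its values were seen because it holds 3 matches and fell. Where a gene has several windows, the one whose match lies nearest its start is shown. Each runs 5′ to 3′ on the gene's strand, with matches to the core on either strand in capitals, so that a match on the other strand shows GAAA at both ends. They span chr21:41420308-41420607 (plus strand) for MX1, chr1:27672143-27672442 (minus) for IFI6, chr3:122564251-122564550 (minus) for PARP9, chr4:168480443-168480742 (minus) for DDX60L, chr10:89332279-89332578 (plus) for IFIT3, chr10:89392373-89392672 (plus) for IFIT1 and chr4:88456869-88457168 (plus) for HERC5.
MX1: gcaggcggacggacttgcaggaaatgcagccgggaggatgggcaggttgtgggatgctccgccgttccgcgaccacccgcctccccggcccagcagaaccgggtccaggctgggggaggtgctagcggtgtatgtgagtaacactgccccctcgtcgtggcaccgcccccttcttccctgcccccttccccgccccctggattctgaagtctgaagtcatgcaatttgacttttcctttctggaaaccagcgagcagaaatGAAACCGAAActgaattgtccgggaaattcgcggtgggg
IFI6: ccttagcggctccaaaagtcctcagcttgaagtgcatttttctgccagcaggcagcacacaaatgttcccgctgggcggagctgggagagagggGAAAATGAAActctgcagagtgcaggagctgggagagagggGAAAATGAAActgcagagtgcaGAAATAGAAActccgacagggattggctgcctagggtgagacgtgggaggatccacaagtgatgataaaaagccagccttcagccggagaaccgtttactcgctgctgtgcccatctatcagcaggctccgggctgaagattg
PARP9: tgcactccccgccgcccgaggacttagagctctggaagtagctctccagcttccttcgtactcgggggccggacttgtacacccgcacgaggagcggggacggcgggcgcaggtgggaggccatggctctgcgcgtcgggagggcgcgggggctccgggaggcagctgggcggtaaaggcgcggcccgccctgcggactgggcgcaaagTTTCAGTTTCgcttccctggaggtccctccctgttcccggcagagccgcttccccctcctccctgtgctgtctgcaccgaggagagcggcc
DDX60L: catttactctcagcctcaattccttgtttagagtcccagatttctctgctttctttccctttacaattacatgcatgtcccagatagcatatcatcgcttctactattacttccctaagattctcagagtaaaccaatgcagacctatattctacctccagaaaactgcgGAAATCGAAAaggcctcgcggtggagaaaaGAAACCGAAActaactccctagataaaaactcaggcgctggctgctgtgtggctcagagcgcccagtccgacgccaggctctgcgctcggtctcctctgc
IFIT3: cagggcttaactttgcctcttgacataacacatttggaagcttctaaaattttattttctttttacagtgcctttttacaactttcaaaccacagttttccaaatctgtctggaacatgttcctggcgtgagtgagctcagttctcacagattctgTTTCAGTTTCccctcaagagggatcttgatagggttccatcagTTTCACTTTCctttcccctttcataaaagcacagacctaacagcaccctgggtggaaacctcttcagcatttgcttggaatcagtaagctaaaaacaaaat
IFIT1: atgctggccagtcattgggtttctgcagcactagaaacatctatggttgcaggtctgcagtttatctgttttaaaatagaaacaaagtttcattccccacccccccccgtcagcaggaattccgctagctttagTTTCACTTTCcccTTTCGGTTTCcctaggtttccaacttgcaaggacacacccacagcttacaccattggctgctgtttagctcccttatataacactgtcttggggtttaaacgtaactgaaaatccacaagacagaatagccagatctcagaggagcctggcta
HERC5: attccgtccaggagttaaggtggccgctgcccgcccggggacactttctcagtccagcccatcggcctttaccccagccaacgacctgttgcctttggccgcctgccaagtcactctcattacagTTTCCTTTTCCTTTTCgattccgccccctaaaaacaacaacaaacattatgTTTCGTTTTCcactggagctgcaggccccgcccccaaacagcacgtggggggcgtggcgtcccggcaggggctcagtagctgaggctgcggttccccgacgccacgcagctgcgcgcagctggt

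Over all members' windows there were 53 matches, at 48 distinct places in the genome since some windows overlap, and 46 of the 53 lay within the 200 bases before the start. Counting the base just before the start as -1, their first bases ran from -196 with a median of -79, and the last base of any match was at 33. At most 1 match per window was found in 13 genes, at most 2 in 12, and 3 in IFI6, IFIT5 and HERC5. PARP9 and DTX3L, which are transcribed away from each other, shared a single match at chr3:122564332-122564341, from -41 to -32 of PARP9 and from -6 to 4 of DTX3L. The 3 matches of HERC5 include 2 that overlap. A match says only that the letters are there, and no binding was measured.

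**Figure D3:**
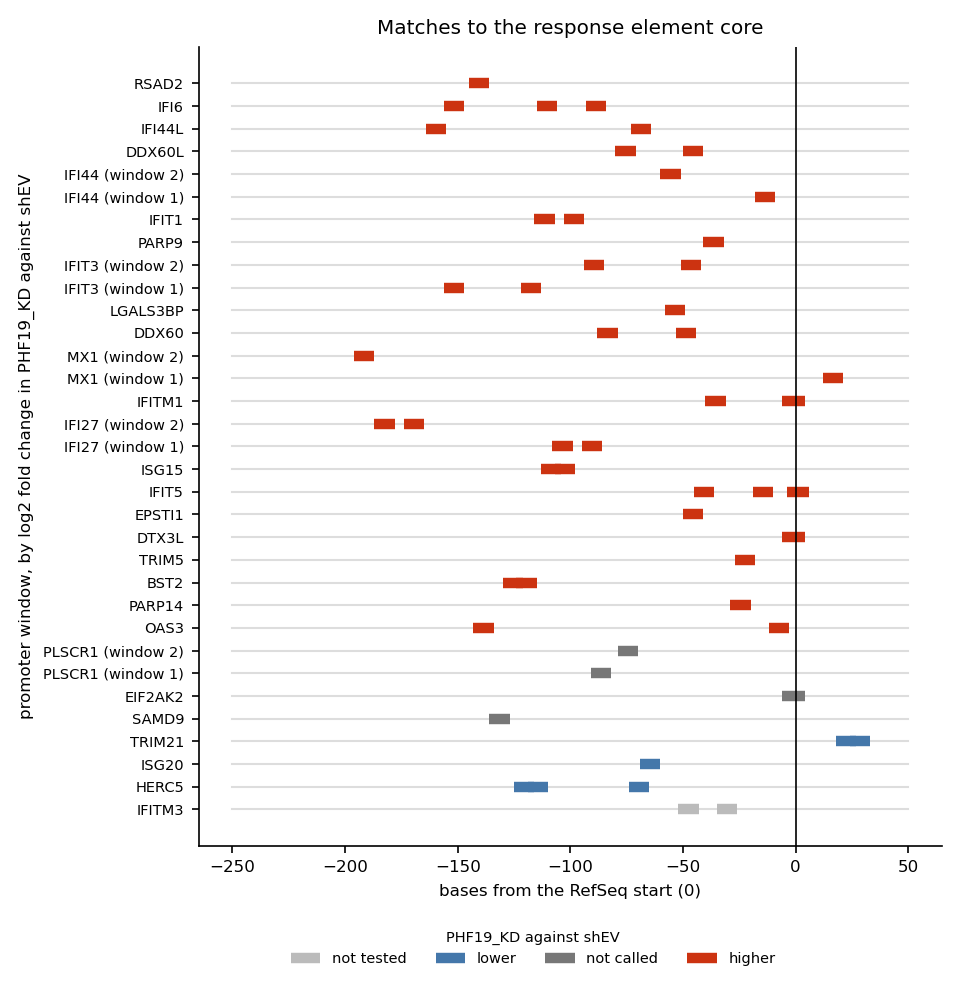
Position of each match to the response element core (thick bars) in the RefSeq promoter windows of members that hold one (grey lines), in bases from the start, ordered by log2 fold change in PHF19_KD against shEV and coloured by the call there. Of 53 matches 46 lie in the 200 bases before the start, and windows of genes that rose, fell or were not called all hold them.

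The ligands themselves were at or near 0. Of 22 interferon genes, 17 had 0 counts in all 9 libraries and 0 passed the filter, and the limit that 3 counts set on a single library ran from 0.125 to 0.279 CPM in the 8 fitted ones. IFNB1 had 1 count each in PHF19_KD replicates 1 and 3, in KD_Rescued replicate 2 and in the disputed library. IFNG had 0, 2 and 1 counts in shEV, 2, 3 and 1 in PHF19_KD, 1 in each KD_Rescued library and 1 in the disputed one. IFNE, IFNK and IFNL4 had at most 2 counts in a single library. A difference in ligand transcripts was thus not detectable at this depth, and such limits cover counting error only.

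Receptor and signalling genes outside the list changed in both directions. Of 9 receptor chains and kinases, 5 rose and 2 fell in PHF19_KD against shEV, beside 34.9% and 34.2% of all genes tested and 69.1% called in either direction, so a count of called genes near that share is no result about these lists. The interferon gamma receptor chain IFNGR1 rose by 0.81 ± 0.08 and IL10RB, a chain of the lambda receptor, by 0.32 ± 0.05 (adjusted p = 2.37e-06 and 0.000154). The alpha and beta receptor chain IFNAR2 had a log2 fold change of -0.21 ± 0.04 and the lambda chain IFNLR1 of -0.20 ± 0.05 (adjusted p = 0.000967 and 0.00515). Among 6 STAT and IRF factors followed outside the members, 5 rose and 0 fell, beside the same shares of all genes. IRF1 rose by 0.87 ± 0.04 and IRF3, which switches on interferon genes, by 0.87 ± 0.06 (adjusted p = 4.28e-09 and 1.47e-07). In KD_Rescued against shEV, IRF1 was at -0.02 ± 0.05 (not called, adjusted p = 0.721) and IRF3 at 0.45 ± 0.07 (adjusted p = 0.000354).

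Of 13 sensors and adaptors that act before interferon is made, 12 were tested, 5 rose and 3 fell, a called share near that of all genes. DHX58, the RNA helicase LGP2, stood at 1.76, 1.57 and 1.83 CPM in shEV, 14.1, 16.4 and 14.1 in PHF19_KD, 3.74 and 4.59 in KD_Rescued and 11.0 in the disputed library. No library of one group overlapped those of another, and the rise was 3.11 ± 0.14 (adjusted p = 1.68e-09). TMEM173, the adaptor STING, rose by 1.97 ± 0.29 and MB21D1, the DNA sensor cGAS that signals through it, had a log2 fold change of -1.21 ± 0.09 (adjusted p = 7.31e-05 and 1.69e-07). The nucleic acid sensor ZBP1 was at -0.42 ± 0.06 (adjusted p = 9.49e-05). Of 9 negative regulators and ISG15 conjugation enzymes, 6 rose and 3 fell, beside 34.9% and 34.2% of all genes tested. UBA7, which activates ISG15 for conjugation, stood at 2.80, 3.23 and 2.65 CPM in shEV, 12.2, 12.4 and 12.5 in PHF19_KD and 5.28 and 5.75 in KD_Rescued, and rose by 2.09 ± 0.12 in the knockdown (adjusted p = 1.28e-08). PIAS1, a SUMO ligase that holds back interferon signalling, rose by 0.40 ± 0.05, while the phosphatase PTPN11 was at -0.41 ± 0.05 and IRF2BP2 at -0.40 ± 0.06 (adjusted p = 2.10e-05, 1.83e-05 and 0.000129). IFNAR2, PIAS1, PTPN11 and IRF2BP2 had values that were not whole in any of the 9 libraries.

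Of the 7 transcription factors and nuclear regulators on the list, 6 rose in PHF19_KD and 0 fell, with a median of 0.60. In this and each role below, such counts stand beside 34.9% of all genes tested that rose and 34.2% that fell. For comparisons with KD_Rescued the shares of all genes given above apply. IRF9, the DNA-binding partner in ISGF3, stood at 6.56, 7.64 and 5.92 CPM in shEV, 17.4, 18.6 and 17.6 in PHF19_KD, 17.8 and 17.8 in KD_Rescued and 19.8 in the disputed library. All libraries with the shRNA lay well above shEV, and the KD_Rescued libraries fell inside the knockdown range. IRF9 rose by 1.41 ± 0.10 in PHF19_KD (adjusted p = 9.42e-08) and was 1.40 ± 0.10 above shEV in KD_Rescued (adjusted p = 1.58e-06), with -0.01 ± 0.10 between KD_Rescued and PHF19_KD (not called, adjusted p = 0.958). IRF7, which drives interferon alpha genes, stood at 10.4, 10.3 and 8.84 CPM in shEV, 23.0, 24.9 and 22.3 in PHF19_KD and 18.4 and 16.3 in KD_Rescued. The groups did not overlap, and KD_Rescued lay between the others. Its rise in the knockdown was 1.25 ± 0.09 (adjusted p = 1.69e-07), and KD_Rescued stayed 0.82 ± 0.10 above shEV (adjusted p = 6.53e-05).

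STAT2, the ISGF3 subunit that carries the activation domain, stood at 168, 165 and 168 CPM in shEV, 219, 207 and 212 in PHF19_KD, 142 and 143 in KD_Rescued and 202 in the disputed library. It was highest in the knockdown and lowest in KD_Rescued, with no overlap. The rise was 0.35 ± 0.04 (adjusted p = 7.45e-06), and KD_Rescued differed from shEV by -0.23 ± 0.04 (adjusted p = 0.00186), the opposite direction. SP100, an organiser of PML nuclear bodies, stood at 28.6, 26.6 and 29.0 CPM in shEV, 46.4, 39.5 and 42.3 in PHF19_KD and 30.4 and 30.7 in KD_Rescued. KD_Rescued lay between the other groups, nearer shEV. SP100 rose by 0.60 ± 0.07 (adjusted p = 8.43e-06), SP110 by 0.60 ± 0.10 and IFI35 by 0.68 ± 0.09, and none of these 3 was called in KD_Rescued against shEV. IFI16, a nuclear DNA sensor, stood at 252, 255 and 291 CPM in shEV, 253, 251 and 248 in PHF19_KD and 249 and 257 in KD_Rescued, with overlapping groups. Its log2 fold change in the knockdown was -0.08 ± 0.05 (not called, adjusted p = 0.194). It was 0.07 with upper-quartile scaling, 0.03 with a filter at a mean of 5 CPM and, with no filter, -0.17 and called (adjusted p = 0.00331). Values of IRF9 and SP100 were not whole in any of the 9 libraries, so their reads were in part divided with other genes.

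**Figure D4:**
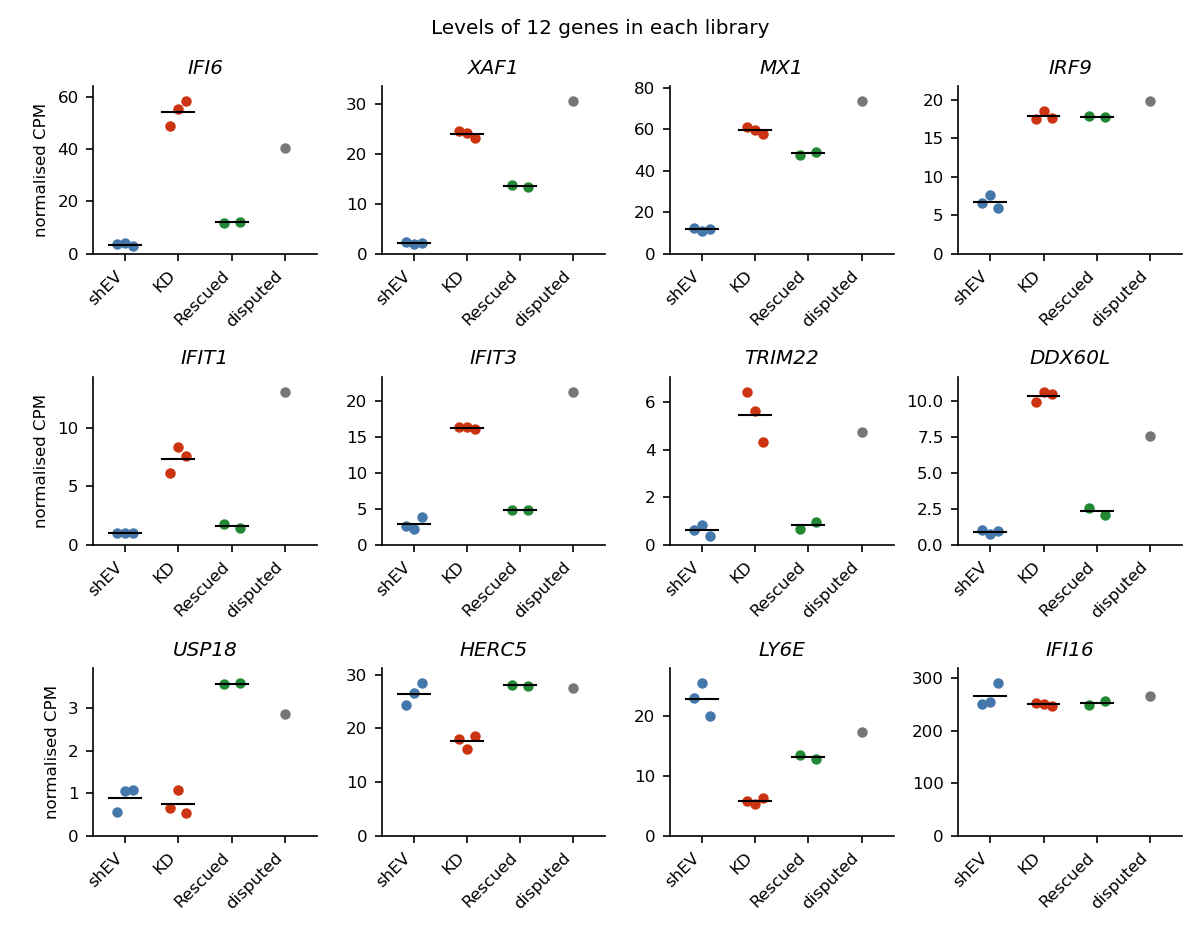
Normalised CPM of 12 interferon-stimulated genes in each library (points), with group means (lines), in shEV, PHF19_KD (KD), KD_Rescued (Rescued) and the disputed library. IFI6, XAF1, MX1, IFIT1, IFIT3, TRIM22 and DDX60L have their lowest mean in shEV and IRF9 stays high in KD_Rescued, while USP18 is highest in KD_Rescued, HERC5 and LY6E are lowest in PHF19_KD and IFI16 overlaps between groups.

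In the ISG15 modifier system 1 gene rose in the knockdown, 1 fell and 2 were not called, and 3 of the 4 were higher in KD_Rescued than in PHF19_KD. ISG15, the ubiquitin-like modifier, stood at 5.24, 4.29 and 3.30 CPM in shEV, 9.01, 11.1 and 8.14 in PHF19_KD, 8.23 and 6.75 in KD_Rescued and 11.2 in the disputed library. Every knockdown library was above every control library, and the rise was 1.12 ± 0.18 (adjusted p = 0.000133). In KD_Rescued it was 0.79 ± 0.18 above shEV (adjusted p = 0.00548), which was not called without KD_Rescued replicate 1 (0.64, adjusted p = 0.0644). HERC5, the ligase that attaches ISG15 to new proteins, stood at 24.4, 26.6 and 28.4 CPM in shEV, 17.9, 16.2 and 18.6 in PHF19_KD, 28.2 and 28.0 in KD_Rescued and 27.6 in the disputed library. The knockdown libraries were the lowest, and KD_Rescued overlapped shEV. HERC5 fell by 0.59 ± 0.08 in the knockdown (adjusted p = 4.18e-05) and was 0.68 ± 0.09 higher in KD_Rescued than in PHF19_KD (adjusted p = 2.78e-05).

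USP18, the protease that removes ISG15 and also blocks receptor signalling, stood at 0.548, 1.05 and 1.08 CPM in shEV, 0.650, 1.07 and 0.539 in PHF19_KD, 3.57 and 3.59 in KD_Rescued and 2.86 in the disputed library. It overlapped between shEV and PHF19_KD and was highest in both KD_Rescued libraries. The log2 fold change was -0.21 ± 0.37 in the knockdown (not called, adjusted p = 0.620) and 2.02 ± 0.30 in KD_Rescued against shEV (adjusted p = 0.000278). HERC6, a relative of HERC5, stood at 4.08, 4.53 and 4.44 CPM in shEV, 5.52, 4.16 and 6.26 in PHF19_KD and 8.77 and 8.49 in KD_Rescued. It too was highest in KD_Rescued and overlapped between the other groups. HERC6 was at 0.28 ± 0.15 in the knockdown (not called, adjusted p = 0.121) and was called without PHF19_KD replicate 2 (0.44, adjusted p = 0.0173) and with upper-quartile scaling or the 5 CPM filter (0.44 and 0.40, adjusted p = 0.0224 and 0.0310). In KD_Rescued it was 0.99 ± 0.15 above shEV (adjusted p = 0.000252). Values of USP18 were not whole in 5 libraries and those of HERC6 in all 9, so reads were divided with other genes and both levels are uncertain.

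Of the 6 genes of the OAS family with PKR and ISG20, 4 rose in the knockdown and 1 fell. OAS1, which makes the oligoadenylates that activate RNase L, stood at 20.9, 18.9 and 22.3 CPM in shEV, 37.5, 37.4 and 33.9 in PHF19_KD, 23.2 and 22.9 in KD_Rescued and 55.8 in the disputed library. The knockdown libraries were above the others fitted, and KD_Rescued was just above shEV. OAS1 rose by 0.81 ± 0.08 (adjusted p = 1.27e-06), and its value of 0.16 ± 0.08 in KD_Rescued against shEV was not called (adjusted p = 0.154), except without shEV replicate 3 (0.21, adjusted p = 0.0315). OASL, which lacks the synthase activity, had 6, 5 and 2 counts in shEV (0.271, 0.253 and 0.118 CPM), 19, 24 and 17 in PHF19_KD (1.77, 1.98 and 1.47) and 4 and 12 in KD_Rescued (0.166 and 0.500). The knockdown libraries stood apart from both other groups, which overlapped. OASL rose by 2.95 ± 0.45 and fell by 2.36 ± 0.47 from PHF19_KD to KD_Rescued (adjusted p = 9.10e-05 and 0.000828), the latter at -3.33 without KD_Rescued replicate 2.

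OAS2, another synthase, stood at 43.5, 44.2 and 48.4 CPM in shEV, 54.6, 58.5 and 55.5 in PHF19_KD and 51.7 and 54.5 in KD_Rescued. Both groups with the shRNA lay above shEV by a small margin, 0.31 ± 0.06 in PHF19_KD (adjusted p = 0.000560) and 0.23 ± 0.06 in KD_Rescued (adjusted p = 0.0134), the latter not called without KD_Rescued replicate 2 (0.18, adjusted p = 0.155) or with the DESeq2 Wald test or a fit of those 2 groups only (0.18 and 0.20, adjusted p = 0.115 and 0.0537). OAS3 was at 0.21 ± 0.08 in the knockdown (adjusted p = 0.0264), a call lost without shEV replicate 1 (0.20, adjusted p = 0.0642) or PHF19_KD replicate 1 (0.17, adjusted p = 0.105) and with no filter or the DESeq2 Wald test (0.12 and 0.20, adjusted p = 0.245 and 0.0661). In KD_Rescued it was lower than in shEV, at -0.31 ± 0.08 (adjusted p = 0.0101), a call lost without KD_Rescued replicate 1 (-0.29, adjusted p = 0.0794). ISG20, an exonuclease for single-stranded RNA, stood at 47.3, 47.8 and 39.4 CPM in shEV, 33.1, 33.5 and 29.9 in PHF19_KD, 53.8 and 53.5 in KD_Rescued and 50.8 in the disputed library. The knockdown was lowest and KD_Rescued highest, with no overlap. ISG20 fell by 0.48 ± 0.08 in the knockdown (adjusted p = 0.000203), a call lost with the disputed library as PHF19_KD (-0.28, adjusted p = 0.139). Its 0.26 ± 0.08 in KD_Rescued against shEV (adjusted p = 0.0262) was not called without either rescued library (0.25 each, adjusted p = 0.119 and 0.115), nor with the DESeq2 Wald test or 2 groups only (0.21 and 0.23, adjusted p = 0.101 and 0.0685). EIF2AK2, the kinase PKR that halts translation, was at -0.10 ± 0.05 (not called, adjusted p = 0.128). It was at 0.06 with upper-quartile scaling, 0.02 with the 5 CPM filter and, with no filter, -0.19 and called (adjusted p = 0.00352). Its 0.19 ± 0.06 from PHF19_KD to KD_Rescued (adjusted p = 0.0157) was lost without PHF19_KD replicate 2 or 3 or either KD_Rescued library (0.15 to 0.20, adjusted p = 0.0542 to 0.0891), and with DESeq2 size factors, the DESeq2 Wald test, upper-quartile scaling or the 5 CPM filter (0.03 to 0.15, adjusted p = 0.0608 to 0.669). Against shEV it was at 0.09 ± 0.06 in KD_Rescued (not called), and called without shEV replicate 3 (0.13, adjusted p = 0.0170).

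All 4 IFIT genes, whose products bind viral RNA and hold back its translation, rose in the knockdown, and all 4 fell from PHF19_KD to KD_Rescued. With the disputed library as KD_Rescued none of these 4 falls was called (-1.68 to -0.60, adjusted p = 0.119 to 0.525). IFIT1 stood at 1.04, 0.960 and 1.00 CPM in shEV, 6.13, 8.43 and 7.62 in PHF19_KD, 1.79 and 1.46 in KD_Rescued and 13.1 in the disputed library. The groups did not overlap, with KD_Rescued close above shEV and the disputed library highest. IFIT1 rose by 2.88 ± 0.19 and fell by 2.19 ± 0.20 (adjusted p = 5.75e-08 and 1.31e-06). Its remaining 0.69 ± 0.23 in KD_Rescued against shEV (adjusted p = 0.0318) was not called without any 1 of shEV replicates 1 and 2 and KD_Rescued replicates 1 and 2 (0.54 to 0.82, adjusted p = 0.0554 to 0.210), nor with no filter, the DESeq2 Wald test, limma-voom, a block for the replicate number or 2 groups only (0.64 to 0.71, adjusted p = 0.0516 to 0.158). IFIT3 stood at 2.62, 2.22 and 3.83 CPM in shEV, 16.4, 16.4 and 16.1 in PHF19_KD, 4.86 and 4.88 in KD_Rescued and 21.3 in the disputed library. Its groups kept the same order as those of IFIT1. IFIT3 rose by 2.51 ± 0.15 and fell by 1.74 ± 0.16 (adjusted p = 2.66e-08 and 1.22e-06), and stayed 0.77 ± 0.18 above shEV (adjusted p = 0.00503). With the disputed library as KD_Rescued the value above shEV was 1.75 and not called (adjusted p = 0.0672).

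IFIT5 stood at 12.2, 11.6 and 13.8 CPM in shEV, 23.7, 23.4 and 21.1 in PHF19_KD, 9.72 and 9.09 in KD_Rescued and 26.0 in the disputed library. Here KD_Rescued lay below shEV. IFIT5 rose by 0.86 ± 0.09 in the knockdown (adjusted p = 3.20e-06), and KD_Rescued differed from shEV by -0.41 ± 0.10 (adjusted p = 0.00749), a call lost without KD_Rescued replicate 2 (-0.37, adjusted p = 0.0744). With the disputed library as KD_Rescued these values were 0.89 and 0.18, and neither was called (adjusted p = 0.0572 and 0.764). IFIT2 had 2, 4 and 4 counts in shEV (0.0903, 0.202 and 0.236 CPM), 8, 10 and 12 in PHF19_KD (0.743, 0.826 and 1.04) and 4 and 1 in KD_Rescued (0.166 and 0.0417). The knockdown libraries were the highest, on few counts. IFIT2 rose by 2.30 ± 0.52 (adjusted p = 0.00185) and fell by 2.98 ± 0.62 (adjusted p = 0.00113), the latter at -4.15 without KD_Rescued replicate 1 and -2.33 without replicate 2. Its -0.68 ± 0.73 in KD_Rescued against shEV was not called (adjusted p = 0.493).

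MX1, MX2, RSAD2 and CMPK2 all rose in the knockdown, by a median of 2.72, and 3 of them stayed higher than shEV in KD_Rescued. MX1, a dynamin-like GTPase that traps viral nucleoproteins, stood at 61.0, 59.5 and 58.0 CPM in the PHF19_KD libraries, 47.8 and 48.9 in KD_Rescued, 73.6 in the disputed library and at 12.3, 11.0 and 12.0 in shEV. KD_Rescued was near the knockdown and far from shEV. From PHF19_KD to KD_Rescued MX1 fell by 0.30 ± 0.06 (adjusted p = 0.00117), and it was 2.04 ± 0.07 above shEV there (adjusted p = 1.03e-08). MX2, which acts on nuclear entry of retroviruses, stood at 1.18, 1.21 and 1.14 CPM in shEV, 10.0, 10.2 and 10.3 in PHF19_KD, 5.47 and 5.29 in KD_Rescued and 9.60 in the disputed library. The groups did not overlap, with KD_Rescued in the middle. MX2 rose by 3.11 ± 0.13 and fell by 0.92 ± 0.12 (adjusted p = 1.13e-09 and 2.84e-05), and KD_Rescued was 2.20 ± 0.14 above shEV (adjusted p = 8.21e-07). Values of MX1 were not whole in 9 libraries and those of MX2 in 8, so the part of reads divided with other genes is uncertain.

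RSAD2, the radical SAM enzyme viperin, had 1, 1 and 3 counts in shEV (0.0452, 0.0505 and 0.177 CPM), 25, 17 and 20 in PHF19_KD (2.32, 1.40 and 1.73) and 14 and 11 in KD_Rescued (0.582 and 0.459). It was near 0 in shEV and clearly above in every other library. RSAD2 rose by 4.30 ± 0.49 in the knockdown (adjusted p = 7.78e-06) and was 2.51 ± 0.58 above shEV in KD_Rescued (adjusted p = 0.00502), values that depend on those few control counts, at 5.05 and 3.27 without shEV replicate 3. CMPK2, its neighbour and partner in making a chain-terminating nucleotide, had 5, 3 and 2 counts in shEV (0.226, 0.152 and 0.118 CPM), 7, 8 and 8 in PHF19_KD (0.650, 0.661 and 0.693) and 13 and 4 in KD_Rescued (0.540 and 0.167). The knockdown libraries were the highest, and the rescued ones lay far apart. CMPK2 rose by 1.94 ± 0.55 (adjusted p = 0.00779), and in KD_Rescued against PHF19_KD it was at -0.91 ± 0.53 (not called, adjusted p = 0.158) and at -1.95 without KD_Rescued replicate 1 (called, adjusted p = 0.0438).

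Of the 7 membrane and secreted factors, 6 were tested, 4 rose and 1 fell in the knockdown. BST2, or tetherin, which holds budding virus at the cell surface and is abundant on myeloma cells, stood at 219.8, 225 and 195 CPM in shEV, 305, 330.3 and 314 in PHF19_KD, 196 and 205 in KD_Rescued and 293 in the disputed library. The knockdown libraries stood above the rest, and KD_Rescued overlapped shEV. BST2 rose by 0.57 ± 0.06 (adjusted p = 2.24e-06), and its -0.09 ± 0.06 in KD_Rescued against shEV was not called (adjusted p = 0.279), except without shEV replicate 3 (-0.15, adjusted p = 0.00816). LY6E, a GPI-anchored surface protein that restricts coronavirus entry, stood at 23.1, 25.5 and 20.1 CPM in shEV, 5.76, 5.37 and 6.24 in PHF19_KD, 13.5 and 12.8 in KD_Rescued and 17.4 in the disputed library. Its order was the reverse of most members, lowest in the knockdown with KD_Rescued between. LY6E fell by 1.99 ± 0.12 (adjusted p = 1.70e-08), was 1.18 ± 0.13 higher in KD_Rescued than in PHF19_KD (adjusted p = 6.08e-06), and remained -0.80 ± 0.10 against shEV (adjusted p = 0.000110), the farthest below shEV of the 47 genes in KD_Rescued. With the disputed library as PHF19_KD neither KD_Rescued value was called (0.56 and -0.85, adjusted p = 0.278 and 0.171).

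IFITM1, one of the membrane proteins that block fusion of viruses with the cell, stood at 0.978, 1.20 and 0.884 CPM in shEV, 3.06, 4.68 and 3.39 in PHF19_KD and 2.88 and 3.30 in KD_Rescued. Both groups with the shRNA were above shEV and overlapped each other. IFITM1 rose by 1.85 ± 0.23 (adjusted p = 1.64e-05) and was 1.57 ± 0.24 above shEV in KD_Rescued (adjusted p = 0.000332). IFITM2 stood at 0.106, 0.0658 and 0.177 CPM in shEV, 0.841, 1.35 and 1.29 in PHF19_KD and 0.149 and 0.203 in KD_Rescued. The knockdown libraries stood above the others, and shEV and KD_Rescued overlapped. IFITM2 rose by 3.41 ± 0.50 and fell by 2.58 ± 0.50 (adjusted p = 6.81e-05 and 0.000696). The IFITM genes are near copies of each other, the values of IFITM1 and IFITM2 were not whole in 8 libraries, and IFITM3 had no counts, so how reads were shared among the 3 is uncertain. LGALS3BP, a secreted glycoprotein, rose by 2.44 ± 0.44 (adjusted p = 0.000338) on at most 16 counts per library. Its -1.54 ± 0.43 from PHF19_KD to KD_Rescued (adjusted p = 0.00816) was not called without KD_Rescued replicate 1 (-1.30, adjusted p = 0.0838) or with the DESeq2 Wald test (-1.59, adjusted p = 0.0588). PLSCR1, a phospholipid scramblase, was at -0.02 ± 0.10 (not called, adjusted p = 0.886), 0.14 with upper-quartile scaling and 0.08 without PHF19_KD replicate 3.

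Of the TRIM ubiquitin ligases, 2 rose and 1 fell in the knockdown. TRIM22, which restricts viral transcription, stood at 0.632, 0.809 and 0.354 CPM in shEV, 6.41, 5.62 and 4.33 in PHF19_KD, 0.665 and 0.959 in KD_Rescued and 4.73 in the disputed library. The knockdown and the disputed library were high, and KD_Rescued overlapped shEV. TRIM22 rose by 3.15 ± 0.29 and fell by 2.74 ± 0.31 (adjusted p = 1.01e-06 and 8.89e-06). TRIM5, which attacks retroviral capsids, stood at 9.80, 11.3 and 9.31 CPM in shEV, 16.0, 17.5 and 16.0 in PHF19_KD and 16.7 and 16.3 in KD_Rescued. Unlike TRIM22 it stayed in the knockdown range in KD_Rescued, with log2 fold changes of 0.70 ± 0.09 and 0.70 ± 0.10 against shEV (adjusted p = 2.86e-05 and 0.000159). TRIM21, the cytosolic antibody receptor, stood at 38.4, 36.8 and 37.5 CPM in shEV, 26.3, 30.6 and 27.8 in PHF19_KD and 32.8 and 32.1 in KD_Rescued. The control libraries were the highest, and TRIM21 fell by 0.41 ± 0.07 (adjusted p = 0.000153). Its 0.20 ± 0.07 from PHF19_KD to KD_Rescued (adjusted p = 0.0327) was not called without PHF19_KD replicate 1 or 3 or either KD_Rescued library (0.15 to 0.22, adjusted p = 0.0898 to 0.134), nor with DESeq2 size factors, the DESeq2 Wald test, upper-quartile scaling, the 5 CPM filter or the replicate block (0.04 to 0.19, adjusted p = 0.0554 to 0.633). The -0.21 ± 0.07 against shEV (adjusted p = 0.0280) was lost without shEV replicate 1 or either KD_Rescued library (-0.23 to -0.20, adjusted p = 0.0756 to 0.156).

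PARP9, PARP14 and DTX3L, a set linked to ADP-ribosylation in which DTX3L is the ubiquitin ligase partner of PARP9, all rose in the knockdown. Each of them fell from PHF19_KD to KD_Rescued. PARP9 stood at 2.31, 2.27 and 3.01 CPM in shEV, 17.5, 16.1 and 16.6 in PHF19_KD, 5.89 and 6.80 in KD_Rescued and 13.9 in the disputed library. The groups were far apart, with KD_Rescued between. PARP9 rose by 2.74 ± 0.13 (adjusted p = 2.46e-09), and KD_Rescued was 1.34 ± 0.14 above shEV (adjusted p = 2.76e-05). DTX3L, on the other side of the promoter shown above, stood at 15.9, 14.1 and 15.1 CPM in shEV, 25.7, 26.3 and 29.0 in PHF19_KD and 20.9 and 21.5 in KD_Rescued. The order of groups was that of PARP9, with a smaller rise of 0.85 ± 0.08 (adjusted p = 1.14e-06). PARP14 stood at 29.9, 31.6 and 31.5 CPM in shEV, 45.8, 42.0 and 39.9 in PHF19_KD and 34.4 and 36.5 in KD_Rescued. Its differences were the smallest of the set, with a rise of 0.46 ± 0.07 (adjusted p = 5.70e-05). The fall by 0.26 ± 0.07 to KD_Rescued (adjusted p = 0.00654) was lost without KD_Rescued replicate 1 (-0.22, adjusted p = 0.0811). Its 0.19 ± 0.07 above shEV (adjusted p = 0.0459) was lost without any 1 of 6 libraries, shEV replicate 3 and PHF19_KD replicate 1 being the exceptions (0.14 to 0.23, adjusted p = 0.0570 to 0.308), and with DESeq2 size factors, no filter, the DESeq2 Wald test, the replicate block or 2 groups only (0.14 to 0.18, adjusted p = 0.0803 to 0.284).

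The helicases DDX60 and DDX60L rose in the knockdown, and the SAMD9 pair, translation inhibitors that restrict poxviruses, was not called. DDX60L stood at 0.994, 0.758 and 0.943 CPM in shEV, 9.92, 10.6 and 10.5 in PHF19_KD, 2.56 and 2.08 in KD_Rescued and 7.53 in the disputed library. All 3 groups were separate, and KD_Rescued lay nearer shEV. DDX60L rose by 3.51 ± 0.17 and fell by 2.15 ± 0.16 (adjusted p = 2.85e-09 and 2.53e-07), and was 1.37 ± 0.20 above shEV in KD_Rescued (adjusted p = 0.000247). DDX60 stood at 0.136, 0.657 and 0.707 CPM in shEV, 2.62, 2.48 and 2.34 in PHF19_KD and 1.05 and 1.55 in KD_Rescued. Replicate 1 was the lowest control library, and the knockdown libraries were highest. DDX60 rose by 2.34 ± 0.42 (adjusted p = 0.000328). Its -0.93 ± 0.40 from PHF19_KD to KD_Rescued was not called (adjusted p = 0.0610), but was called without shEV replicate 1 (-0.94, adjusted p = 0.0101) or 3 (-0.93, adjusted p = 0.0334). It was also called with DESeq2 size factors, upper-quartile scaling, no filter, limma-voom, 2 groups only or the disputed library as PHF19_KD (-1.17 to -0.89, adjusted p = 0.00566 to 0.0477). The 1.40 ± 0.45 against shEV (adjusted p = 0.0280) was lost without KD_Rescued replicate 2 (1.08, adjusted p = 0.202) and with the DESeq2 Wald test or 2 groups only (1.35 and 1.38, adjusted p = 0.0536 and 0.0748). That call was also lost with the disputed library as PHF19_KD or KD_Rescued (1.35 and 2.01, adjusted p = 0.0726 and 0.0565).

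SAMD9 stood at 68.9, 70.4 and 81.4 CPM in shEV, 70.4, 69.0 and 62.9 in PHF19_KD and 56.0 and 52.7 in KD_Rescued. The rescued libraries were the lowest, while shEV and PHF19_KD overlapped. SAMD9 was at -0.12 ± 0.07 in the knockdown (not called, adjusted p = 0.146; 0.03 with upper-quartile scaling; -0.21 and called with no filter, adjusted p = 0.00167) and at -0.43 ± 0.08 in KD_Rescued against shEV (adjusted p = 0.00104). Its fall by 0.31 ± 0.08 from PHF19_KD to KD_Rescued (adjusted p = 0.00497) was lost without KD_Rescued replicate 2 (-0.26, adjusted p = 0.0595). SAMD9L stood at 96.8, 99.5 and 111 CPM in shEV, 116, 106 and 112 in PHF19_KD and 97.7 and 98.8 in KD_Rescued, with overlap between shEV and each other group. SAMD9L was at 0.12 ± 0.06 in the knockdown (not called, adjusted p = 0.0825) and was called without shEV replicate 3 (0.18, adjusted p = 0.00137) and with upper-quartile scaling or the 5 CPM filter (0.28 and 0.24, adjusted p = 0.00151 and 0.00279). Its -0.18 ± 0.06 from PHF19_KD to KD_Rescued (adjusted p = 0.0293) was lost without PHF19_KD replicate 1 or 3 or either KD_Rescued library (-0.18 to -0.15, adjusted p = 0.0682 to 0.147), and with no filter or the replicate block (-0.14 and -0.15, adjusted p = 0.0861 and 0.0609).

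The last role group held IFI6, IFI27, IFI44, IFI44L, XAF1 and EPSTI1, and all 6 rose in the knockdown with a median of 3.21. IFI6, a small protein of mitochondria and the endoplasmic reticulum that restrains cell death, stood at 3.52, 4.04 and 2.83 CPM in shEV, 48.6, 55.1 and 58.2 in PHF19_KD, 11.8 and 12.0 in KD_Rescued and 40.4 in the disputed library. The groups were far apart, with KD_Rescued nearer shEV. From PHF19_KD to KD_Rescued IFI6 fell by 2.18 ± 0.11 (adjusted p = 4.73e-09), and it was 1.77 ± 0.13 above shEV there (adjusted p = 2.13e-06). XAF1, an antagonist of the apoptosis inhibitor XIAP, stood at 2.42, 2.02 and 2.18 CPM in shEV, 24.7, 24.1 and 23.3 in PHF19_KD, 13.8 and 13.4 in KD_Rescued and 30.6 in the disputed library. No groups overlapped, and KD_Rescued lay midway. XAF1 rose by 3.44 ± 0.10 (adjusted p = 4.00e-11) and was 2.62 ± 0.11 above shEV in KD_Rescued (adjusted p = 3.07e-08).

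IFI44, a cytoplasmic protein, stood at 0.497, 0.657 and 0.766 CPM in shEV, 4.92, 4.96 and 5.11 in PHF19_KD, 3.90 and 4.59 in KD_Rescued and 7.19 in the disputed library. KD_Rescued was just below the knockdown. IFI44 was the member farthest above shEV in KD_Rescued, at 2.74 ± 0.21 (adjusted p = 2.34e-06), after a rise of 2.97 ± 0.20 in the knockdown (adjusted p = 7.14e-08). Its neighbour IFI44L had 1, 1 and 2 counts in shEV (0.0452, 0.0505 and 0.118 CPM), 9, 12 and 18 in PHF19_KD (0.836, 0.991 and 1.56), 10 and 13 in KD_Rescued (0.415 and 0.542) and 36 in the disputed library (3.54). The control libraries were near 0 and the disputed library was highest. IFI44L rose by 3.92 ± 0.54 (adjusted p = 3.63e-05) and was 2.69 ± 0.60 above shEV in KD_Rescued (adjusted p = 0.00414). The fall by 1.23 ± 0.43 from PHF19_KD (adjusted p = 0.0255) was lost without PHF19_KD replicate 3 or either KD_Rescued library (-1.43 to -0.94, adjusted p = 0.0776 to 0.161), and with no filter, the DESeq2 Wald test or the replicate block (-1.28 to -0.90, adjusted p = 0.0619 to 0.131).

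EPSTI1, named for its induction in epithelial cells beside stroma, stood at 13.6, 12.3 and 14.6 CPM in shEV, 25.4, 23.5 and 24.2 in PHF19_KD, 12.7 and 14.0 in KD_Rescued and 23.9 in the disputed library. KD_Rescued overlapped shEV. EPSTI1 rose by 0.85 ± 0.09 and fell by 0.87 ± 0.09 (adjusted p = 2.32e-06 and 6.07e-06). IFI27, a mitochondrial protein often used as a blood marker of interferon exposure, had 6, 2 and 1 counts in shEV, 6, 6 and 3 in PHF19_KD and 14 and 13 in KD_Rescued. Control and knockdown libraries overlapped in counts, and its rise of 1.49 ± 0.61 (adjusted p = 0.0453) had the highest adjusted p of the 36. It was lost without shEV replicate 3, PHF19_KD replicate 1, PHF19_KD replicate 2 or KD_Rescued replicate 2 (1.17 to 1.48, adjusted p = 0.0708 to 0.129), and with no filter or the DESeq2 Wald test (1.40 and 1.56, adjusted p = 0.0940 and 0.138). Its 1.85 ± 0.57 in KD_Rescued against shEV (adjusted p = 0.0226) was lost without shEV replicate 3 (1.53, adjusted p = 0.0502) or KD_Rescued replicate 2 (1.89, adjusted p = 0.0944).

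**Figure D5:**
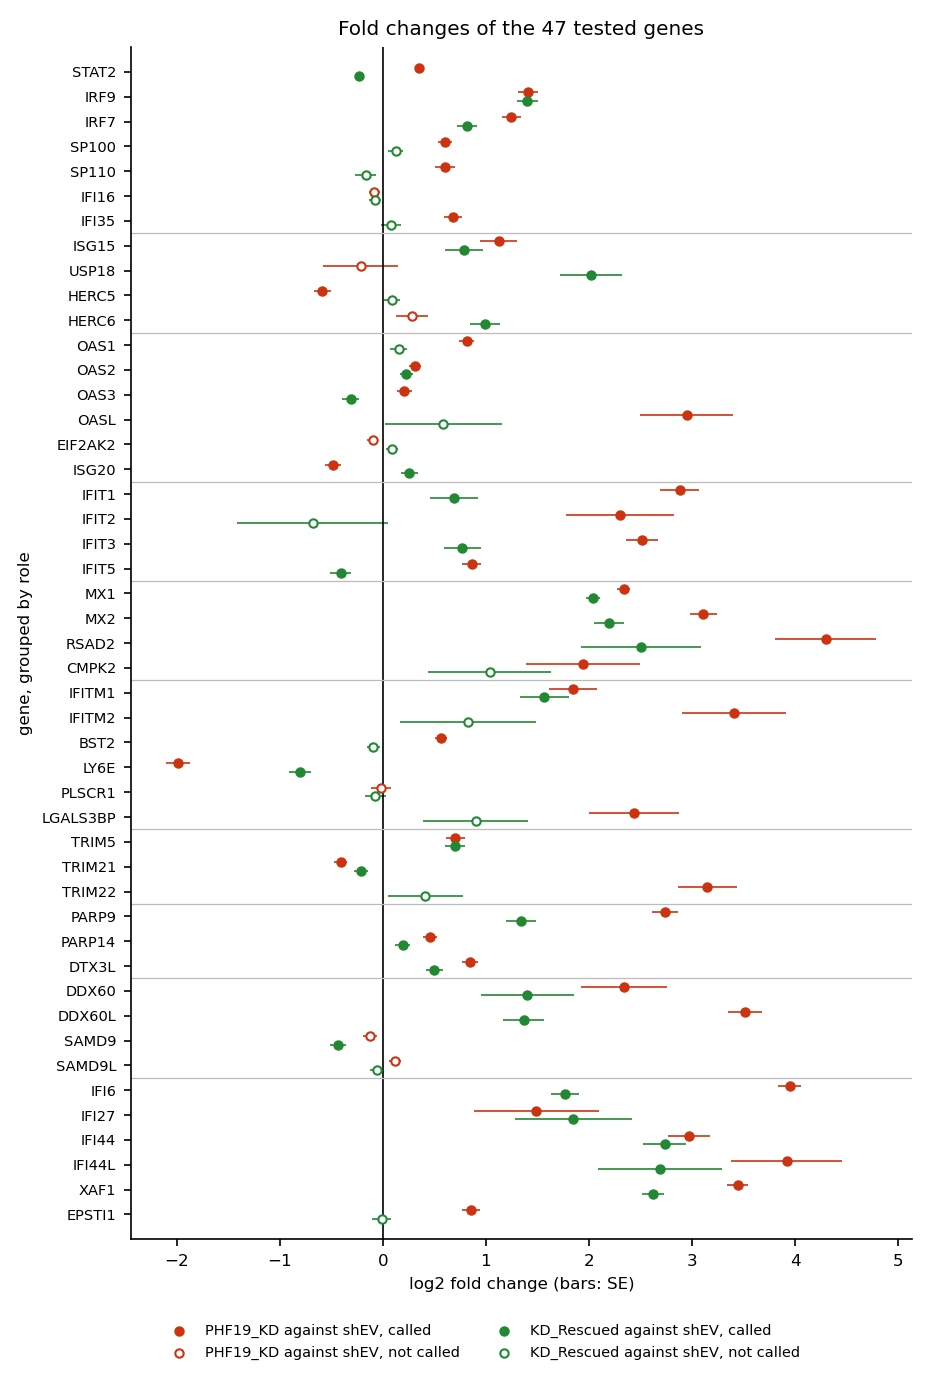
Log2 fold changes of the 47 tested genes (points, bars are SE) in PHF19_KD against shEV (red) and KD_Rescued against shEV (green), grouped by role, filled where the adjusted p was below 0.05. In the knockdown 36 are called above 0 and 4 below, and in KD_Rescued 24 above and 6 below, with IFI44, IFI44L and XAF1 farthest above.

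Set side by side, the role groups differed in where KD_Rescued stood. Of the 4 IFIT genes, 2 were higher and 1 lower than shEV in KD_Rescued, with a median log2 fold change of 0.14, beside 2.41 in PHF19_KD. For the MX, RSAD2 and CMPK2 group these medians were 2.12 in KD_Rescued and 2.72 in PHF19_KD, and for the IFI6 to EPSTI1 group they were 2.23 and 3.21. For the transcription factors they were 0.08 and 0.60, and for the membrane and secreted factors 0.38 and 1.21. For the ISG15 system they were 0.89 in KD_Rescued and 0.03 in PHF19_KD, and it was the group with 3 of 4 members higher in KD_Rescued than in PHF19_KD. The IFIT, MX, IFI6 to EPSTI1, membrane and OAS groups hold genes that could pass the filter only through groups other than shEV. Their medians depend in part on that filter. The plot of fold changes by gene shows the same spread within groups, and differences between role groups were not tested.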

How the data were processed

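The deposited table holds the authors' estimated counts per gene, 1 column per library. Per the submitters' processing notes CASAVA, RSEM and hg19 were used, in roles that are not stated, while the table's name refers to salmon. The annotation, and whether counting used strand, is not given in the sources used here, so reads of overlapping or antisense genes cannot be told apart. The members and gene lists were chosen with earlier results of these data known. Counts were rounded, filtered with filterByExpr, scaled with TMM and tested with the quasi-likelihood test of edgeR 4.0.16 (R 4.3.3) in a single fit of the 8 libraries with undisputed labels, with Benjamini-Hochberg adjustment over 16600 genes and a threshold of 0.05. The SE is the log2 value over the root of F. Of the 48 members, 27 had whole values (tolerance 0.01) in every library and 21 did not. Replicates differed by more than counting noise (chi-square per degree of freedom 1.37 to 9.15, shEV replicate 3 farthest from its group). Each was counted separately in the fit, but this spread does not show whether they came from separate cultures. The script was tested on simulated data. Values in every library are given for up to 4 members per role with the lowest adjusted p in PHF19_KD against shEV, for members called against most of their role, and for the 3 farthest above and below shEV in KD_Rescued. For the pathway lists the 2 lowest adjusted p in each direction are named, and 1 gene of these lists is not reported here. Other members are named because all are accounted for, and a few have further values chosen after they were seen. Windows shown are those with the match nearest the start. IFITM protein sequences were not used here. Alternatives used DESeq2 1.42.0 and limma 3.58.1, other scalings and filters, left-out libraries and the disputed library in either group.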

Additional observations from a re-analysis of the deposited data

Results flagged for a closer look

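The disputed library, which entered no test, had most of these genes above the control level. Of the 47 tested members, 40 lay above every shEV library in it (85.1%, beside 41.3% of all genes tested). Below every shEV library lay 2 (4.26%, beside 38.7% of all genes). Above every PHF19_KD library lay 24 (51.1%, beside 40.0% of all genes). Within the PHF19_KD range lay 11 (23.4%), near the 25.3% of all genes, and below it 12 (25.5%, beside 34.7%). IFI44L stood at 3.54 CPM there, beside 0.836 to 1.56 in PHF19_KD. IFIT1 stood at 13.1 CPM beside 6.13 to 8.43, and OAS1 at 55.8 beside 33.9 to 37.5. IFI6 and DDX60L were among those below every PHF19_KD library. HERC5 and ISG20, which fell in PHF19_KD, were at 27.6 and 50.8 CPM, beside 24.4 to 28.4 and 39.4 to 47.8 in shEV. LY6E and TRIM21, the other 2 that fell in PHF19_KD, were at 17.4 and 32.5 CPM, below the 20.1 to 25.5 and 36.8 to 38.4 of shEV. PHF19 was at 63.5 CPM there, between PHF19_KD and shEV. The result drew attention because it comes from a library outside the comparisons, of which there is only 1, and which of its labels holds was not tested.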

How the results depend on the processing

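In PHF19_KD against shEV, the 36 rises numbered 24 to 38 over all alternatives and 34 to 36 with any 1 library left out, and the 4 falls numbered 7 with no filter. In KD_Rescued against PHF19_KD, the 7 rises numbered 4 with a filter at a mean of 5 CPM and 4 with the disputed library as PHF19_KD. With the disputed library as KD_Rescued, the 29 falls numbered 11 and all genes called 6207 rather than 10526. In KD_Rescued against shEV, the 24 rises numbered 15 with the 5 CPM filter, and with the disputed library as PHF19_KD or KD_Rescued the 6 falls numbered 3 or 1 and all genes called 4047 or 2464 rather than 6599. Leaving out 1 library gave 4048 to 7539 genes called there, with 4253 and 4048 without KD_Rescued replicates 1 and 2. Left-out libraries gave 18 to 25 rises and 4 to 7 falls there, and 5 to 7 rises and 26 to 30 falls in KD_Rescued against PHF19_KD. The cause was not tested, except that a stricter filter tests fewer members.

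Replicate numbers are shared by the groups, but deviations of same-numbered libraries correlated by only -0.00999 to 0.0256, so the numbers were not taken as pairs. With the replicate block 36 members rose in PHF19_KD against shEV (11537 genes called), 6 rose and 28 fell in KD_Rescued against PHF19_KD (10341 genes) and 22 rose and 6 fell in KD_Rescued against shEV (6387 genes).

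Upper-quartile scaling moved the median of all genes from 0.03 to 0.19 in PHF19_KD against shEV, with 60.6% rather than 50.5% of calls higher, and from 0.03 to -0.12 in KD_Rescued against PHF19_KD, with 42.1% rather than 53.4% higher. Of the values of single members, 13, 56 and 57 lost their call and 9, 16 and 3 gained one under an alternative in the 3 comparisons in that order, leaving out adjusted p-values that DESeq2 did not give, and 20 of the lost ones were in KD_Rescued against PHF19_KD with the disputed library as KD_Rescued.

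Signs also turned, in each case to a value that was not called. In PHF19_KD against shEV, IFI16 was 0.0717, EIF2AK2 0.0574, PLSCR1 0.138 and SAMD9 0.0313 with upper-quartile scaling and IFI16 was 0.0343, EIF2AK2 0.0197 and PLSCR1 0.0999 with the 5 CPM filter. USP18 was 0.519 and PLSCR1 0.00466 with the disputed library as PHF19_KD and PLSCR1 was 0.0106 with the disputed library as KD_Rescued. With 1 library left out, PLSCR1 ranged from -0.130 to 0.0799. In KD_Rescued against PHF19_KD, IFI16 was -0.0310 with DESeq2 size factors and IFI16 was -0.144 with upper-quartile scaling. IRF9 was 0.0340 and TRIM5 0.0367 with no filter and IFI16 was -0.0809 with the 5 CPM filter. IFI16 was -0.0310 with the DESeq2 Wald test and IFI16 was -0.0302 with 2 groups only. IFI16 was -0.0714 with the disputed library as PHF19_KD and IFI16 was -0.0271 and IFI44L 0.185 with the disputed library as KD_Rescued. Left-out libraries there gave IRF9 from -0.0266 to 0.0186, PLSCR1 from -0.156 to 0.0577, TRIM5 from -0.0331 to 0.0377 and IFI16 from -0.00944 to 0.0390. In KD_Rescued against shEV, EPSTI1 was 0.0152 with the 5 CPM filter and EPSTI1 was 0.0146 with the replicate block. OAS3 was 0.129, IFIT2 0.643, IFIT5 0.182, BST2 0.0852 and EPSTI1 0.271 with the disputed library as KD_Rescued. Left-out libraries there gave IFI35 from -0.0172 to 0.139, SAMD9L from -0.0966 to 0.000356, EPSTI1 from -0.0898 to 0.0525, CMPK2 from -0.0177 to 1.63 and OASL from -0.388 to 1.16. Genes with few counts, such as RSAD2, IFIT2 and CMPK2, are limited by depth.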
